A study of Mus musculus with 6 samples.

Results

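The interferon regulatory factors are a family of DNA-binding proteins, and 8 of their genes were followed here through 3 subsets of mouse common dendritic cell progenitors. The genes, chosen by symbol, were Irf1, Irf2, Irf3, Irf4, Irf5, Irf7, Irf8 and Irf9, which are 8 of the 16135 genes listed in any library. The progenitors are cells of the bone marrow from which dendritic cells develop. They came from wildtype C57BL/6 mice aged 6 to 8 weeks, with no treatment named in the labels, and were sorted by flow cytometry. The sort used CD115, the receptor for macrophage colony-stimulating factor encoded by Csf1r, and Ly6C, a surface antigen of monocytes and their precursors. There were 2 polyA RNA libraries of each subset, namely CD115-Ly6C-, CD115+Ly6C+ and CD115+Ly6C-. The labels do not say whether the 2 libraries of a subset came from separate animals, so p-values measure the spread between these libraries, which may be technical.

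Every member of the family carries an amino-terminal DNA-binding domain that reads repeats of GAAA, found in interferon-stimulated response elements. Irf3, Irf5 and Irf7 wait in the cytoplasm and enter the nucleus after phosphorylation downstream of nucleic acid sensors, where they switch on interferon and cytokine genes. Irf9 joins Stat2 in the complex that answers type I interferon. Irf1 is itself induced by interferon gamma, and Irf2 was first described as its antagonist on shared sites. Irf4 and Irf8 bind DNA weakly alone and act with partners such as PU.1 and BATF. In bone marrow, Irf8 is best known as the factor that type 1 conventional dendritic cells and many monocytes need to form.

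Irf8 was by far the most abundant of the 8 transcripts, and it was abundant in all 3 subsets. Levels here are FPKM, which scales fragments by transcript length and library depth, as the authors deposited them. Irf8 stood at 819 and 874 FPKM in CD115-Ly6C-, 950 and 859 FPKM in CD115+Ly6C+, and 850 and 1007 FPKM in CD115+Ly6C-. The libraries of the 3 subsets overlapped on this scale. Irf8 ranked between 71 and 101 among the genes with reads in a library, of which there were 13307 to 14127. It made up 76.0% and 77.4% of the summed FPKM of the 8 genes in CD115-Ly6C- libraries, 83.0% and 81.3% in CD115+Ly6C+ libraries, and 82.3% and 83.7% in CD115+Ly6C- libraries.

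**Figure D1:**
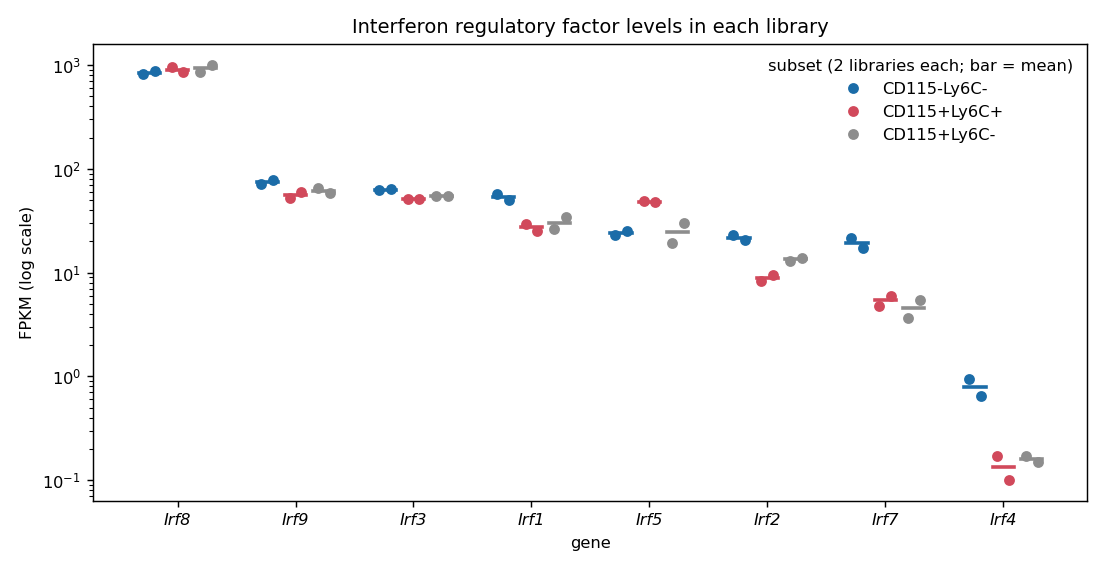
FPKM (log scale) of the 8 genes in each library, with points for the 2 libraries of a subset and a bar for their mean. Irf8 lies between 819 and 1007 FPKM in every library, and Irf5 is highest in CD115+Ly6C+. In FPKM, Irf1, Irf2, Irf3, Irf4, Irf7 and Irf9 are highest in CD115-Ly6C-. Of these, Irf3 and Irf9 had an edgeR adjusted p above 0.05 in every comparison.

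Below Irf8, the order of the family was Irf9, then Irf3, in all 3 subsets, with no overlap between neighbours. In CD115-Ly6C- Irf1 followed, then Irf5, Irf2 and Irf7, and the libraries of these last neighbours overlapped. In CD115+Ly6C+ Irf5 stood next after Irf3, above Irf1, Irf2 and Irf7, each apart from its neighbour. In CD115+Ly6C- Irf1 and Irf5 overlapped and stood above Irf2 and Irf7. Irf4 came last everywhere, below 1 FPKM in all 6 libraries.

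Set against each other, CD115-Ly6C- and CD115+Ly6C+ differed in 5 of the 8 genes. Irf1, Irf2, Irf4 and Irf7 were higher in CD115-Ly6C-, and Irf5 was lower. Over all 12127 genes tested, 39.3% were called in this comparison, 20.1% as higher and 19.2% as lower, where called means an edgeR adjusted p under 0.05. In bulk RNA, more cells that carry a transcript and more of it per cell cannot be told apart.

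Against CD115+Ly6C-, CD115-Ly6C- had 4 of the 8 genes higher, again Irf1, Irf2, Irf4 and Irf7, and 0 lower. The share of all genes called in either direction was 15.2%, with 8.43% higher and 6.78% lower. Of the 4, only Irf7 was still called after leaving out each of the 6 libraries in turn, and the count was 1 without CD115-Ly6C- replicate 1 or CD115+Ly6C- replicate 1 and 2 without either of the others of these subsets.

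Between the CD115+ subsets, CD115+Ly6C+ had 1 of the 8 genes higher than CD115+Ly6C-, Irf5, and 0 lower. The share of all genes called was 9.6%, with 5.26% higher and 4.34% lower. The count was 0 without CD115+Ly6C+ replicate 1, CD115+Ly6C+ replicate 2 or CD115+Ly6C- replicate 1. It was 2 with library totals in place of TMM scaling, with DESeq2, without the filter on low counts and with limma on FPKM, which each added Irf2 as lower.

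The median log2 fold change of the 8 genes was 0.50 for CD115-Ly6C- over CD115+Ly6C+, 0.36 for CD115-Ly6C- over CD115+Ly6C-, and -0.05 for CD115+Ly6C+ over CD115+Ly6C-. Over all genes tested the medians were 0.03, 0.02 and -0.01. The 3 comparisons share libraries, so their values are given side by side and are not independent of each other.

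**Figure D2:**
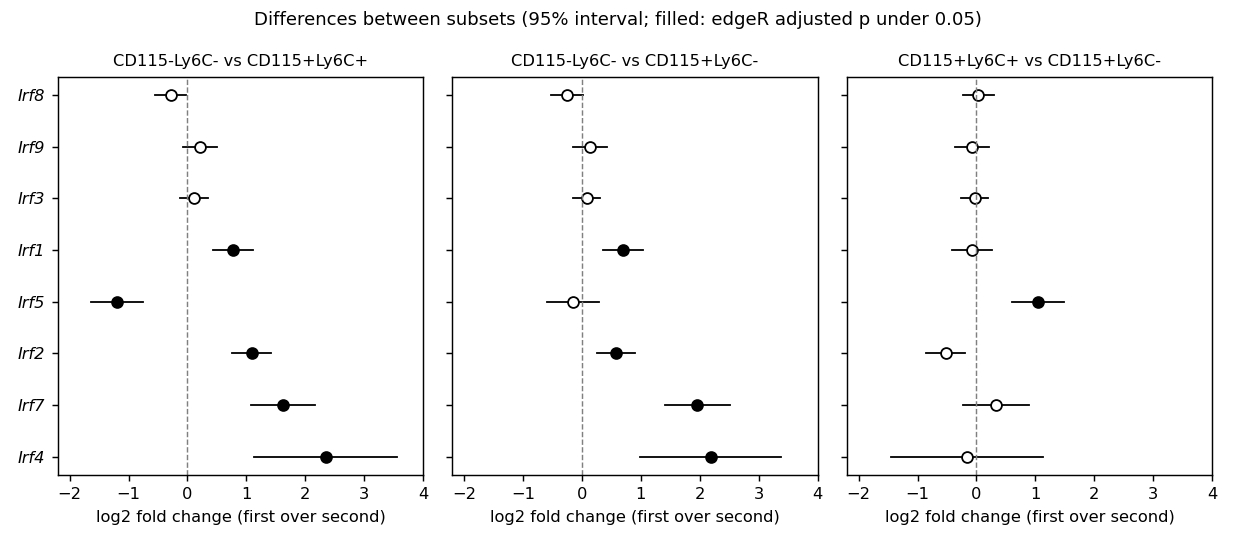
The log2 fold change of each of the 8 genes in the 3 comparisons, first subset over second, as a point with its 95% interval, filled where the edgeR adjusted p was under 0.05. Irf4, Irf7, Irf2 and Irf1 lie right of 0 in both comparisons of CD115-Ly6C-, while Irf5 lies at -1.19 and -0.15 there and at 1.04 for CD115+Ly6C+ over CD115+Ly6C-.

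Genes that mark other cells also differed between the subsets. The 3 genes taken to mark these progenitors, Flt3, Kit and Csf1r, had reads in every subset and summed to 433 to 460 FPKM in CD115-Ly6C-, 234 to 255 FPKM in CD115+Ly6C+, and 318 to 344 FPKM in CD115+Ly6C-. Its members did not move together. Csf1r, the gene of the CD115 antigen used in the sort, stood at 62.8 and 74.2 FPKM in CD115-Ly6C-, 142 and 133 FPKM in CD115+Ly6C+, and 110 and 138 FPKM in CD115+Ly6C-, and was called as lower in CD115-Ly6C- over both others, while Flt3 and Kit were called as higher there. The 8 early lymphoid and B cell markers, Rag1 and Dntt among them, summed to 1476 to 1758 FPKM in CD115-Ly6C-, 18.7 to 24.6 FPKM in CD115+Ly6C+, and 157 to 212 FPKM in CD115+Ly6C-. Pax5, which defines committed B cells, was at 0 in CD115+Ly6C+ and CD115+Ly6C-. The lymphoid sums thus followed the direction of Irf1, Irf2, Irf4 and Irf7, high in CD115-Ly6C-.

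The 7 plasmacytoid dendritic cell markers summed to 1196 to 1282 FPKM in CD115-Ly6C-, 404 to 450 FPKM in CD115+Ly6C+, and 573 to 595 FPKM in CD115+Ly6C-, and all 7 had reads in each subset. In CD115-Ly6C- over CD115+Ly6C+, 6 were called as higher and 1, Bst2, as lower (log2 fold change -0.43, edgeR adjusted p = 0.0218). Over CD115+Ly6C-, 5 were called as higher, and Bst2 and Tcf4 were not called. Bst2 is also on the list of interferon-stimulated genes below. The 5 T and NK cell markers summed to 84.6 to 87.8 FPKM in CD115-Ly6C-, 2.60 to 3.66 FPKM in CD115+Ly6C+, and 16.4 to 18.6 FPKM in CD115+Ly6C-, with Cd3e at 0 in CD115-Ly6C- and CD115+Ly6C-. Monocyte markers were highest in CD115+Ly6C+, as Irf5 was. The 7 monocyte markers summed to 384 to 519 FPKM in CD115-Ly6C-, 4089 to 4128 FPKM in CD115+Ly6C+, and 1147 to 1247 FPKM in CD115+Ly6C-. This list holds Ly6c2, a gene of the Ly6C antigen used in the sort, which alone stood at 70.4 and 101 FPKM in CD115-Ly6C-, 2117 and 2005 FPKM in CD115+Ly6C+, and 185 and 289 FPKM in CD115+Ly6C-, so its contrast is in part set by the gate. The other 6 summed to 314 to 418 FPKM in CD115-Ly6C-, 2011 to 2084 FPKM in CD115+Ly6C+, and 958 to 962 FPKM in CD115+Ly6C-. The 6 markers of type 1 conventional dendritic cells summed to 6.04 FPKM in both CD115-Ly6C- libraries, 29.7 FPKM in both CD115+Ly6C+ libraries, and 11.5 to 14.1 FPKM in CD115+Ly6C-, where Tlr3 was at 0. The monocyte sums, with or without Ly6c2, and those of type 1 dendritic cells were thus highest in CD115+Ly6C+. Of the 6 type 1 markers, only Clec9a and Naaa were called as lower in CD115-Ly6C- over CD115+Ly6C+. Batf3, Xcr1, Cadm1 and Tlr3 were not called there. Clec9a, Naaa and Tlr3 were called as higher in CD115+Ly6C+ over CD115+Ly6C-. The 9 neutrophil markers, granule genes for the most part, summed to 1532 to 1883 FPKM in CD115-Ly6C-, 10870 to 11450 FPKM in CD115+Ly6C+, and 2444 to 3576 FPKM in CD115+Ly6C-. Markers of type 2 conventional dendritic cells, 4 in all, summed to 62.1 to 67.9 FPKM in CD115-Ly6C-, 120 to 154 FPKM in CD115+Ly6C+, and 49.8 to 53.5 FPKM in CD115+Ly6C-. They were split between CD115-Ly6C- and CD115+Ly6C-. H2-Ab1 was called as higher in CD115-Ly6C- (log2 fold change 1.36, edgeR adjusted p = 0.00353) and Cd209a as lower (-2.1, edgeR adjusted p = 0.00272). Erythroid and megakaryocyte markers, 5 in all, summed to between 7.76 and 24.9 FPKM in every library. Among them, Pf4 was called as higher in CD115+Ly6C+ over both others, and Hbb-bt as higher in CD115-Ly6C- over CD115+Ly6C-. Hba-a1, Klf1 and Itga2b were not called in any comparison. The part of other cell types in the results for the family was not tested.

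The start regions of 4 of the genes are shown because Irf1, Irf2 and Irf4 were called together in CD115-Ly6C-, and because Irf8 leads the family in level. Each is the 250 bases before an annotated start, from RefSeq on GRCm38.p6, plus strand, at chr11:53769764-53770013 (Irf1), chr8:46739495-46739744 (Irf2), chr13:30748983-30749232 (Irf4) and chr8:120736108-120736357 (Irf8). Capitals mark matches, on either strand, to any of 4 motifs: the core of the interferon-stimulated response element (GAAANNGAAA), the gamma-activated sequence bound by STAT dimers (TTCNNNGAA), the composite of an ETS and an IRF half-site (GGAANNGAAA), and the NF-kappaB consensus.
Irf1: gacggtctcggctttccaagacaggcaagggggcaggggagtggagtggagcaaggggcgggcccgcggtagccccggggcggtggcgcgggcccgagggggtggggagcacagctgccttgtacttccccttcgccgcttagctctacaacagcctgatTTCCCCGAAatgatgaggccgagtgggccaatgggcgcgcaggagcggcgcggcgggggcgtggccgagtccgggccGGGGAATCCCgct
Irf2: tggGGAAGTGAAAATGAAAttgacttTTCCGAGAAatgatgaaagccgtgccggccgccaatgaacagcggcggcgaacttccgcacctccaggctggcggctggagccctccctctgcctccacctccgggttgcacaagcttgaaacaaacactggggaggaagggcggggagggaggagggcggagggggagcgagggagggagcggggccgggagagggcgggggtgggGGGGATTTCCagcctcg
Irf4: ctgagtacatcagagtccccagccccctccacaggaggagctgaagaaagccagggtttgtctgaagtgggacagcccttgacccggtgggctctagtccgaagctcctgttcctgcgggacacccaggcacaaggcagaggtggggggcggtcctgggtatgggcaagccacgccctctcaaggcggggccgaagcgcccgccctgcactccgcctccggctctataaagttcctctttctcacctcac
Irf8: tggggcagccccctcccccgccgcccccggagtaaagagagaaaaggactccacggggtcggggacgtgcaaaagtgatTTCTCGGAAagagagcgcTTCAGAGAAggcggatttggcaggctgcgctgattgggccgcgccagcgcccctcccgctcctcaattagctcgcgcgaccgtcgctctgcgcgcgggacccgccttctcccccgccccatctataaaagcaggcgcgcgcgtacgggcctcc
Irf1 held a gamma-activated sequence 90 to 82 bases before its start and an NF-kappaB match, the same site on both strands, 13 to 4 bases before it. Irf2 held all 4 motifs, with the ETS-IRF composite (247 to 238 bases before the start) and the response element core (241 to 232) sharing 4 bases. Irf8 held 2 gamma-activated sequences, and Irf4 none of the 4. Over the same 250 bases of all 32851 RefSeq windows, the gamma-activated sequence was found in 7.02%, the NF-kappaB consensus in 3.9%, the response element core in 2.98% and the composite in 2.3%. The windows of Irf3, Irf5, Irf7 and Irf9, and the second windows of Irf1 and Irf8, held none of the 4. The window of Irf5 lies inside the annotated gene and that of Irf7 lies in part inside it, and neither is shown. A match is a string of letters and no evidence of binding.

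Irf8 (Entrez gene 15900, chromosome 8, 120736358 to 120756694 of GRCm38.p6) was not called in any comparison. Scaled by TMM, it stood at 2015 and 2209 CPM in CD115-Ly6C-, 2672 and 2478 CPM in CD115+Ly6C+, and 2317 and 2714 CPM in CD115+Ly6C-. On this scale, unlike in FPKM, both CD115-Ly6C- libraries lay below the other 4. The log2 fold change came to -0.29 (SE 0.12) for CD115-Ly6C- over CD115+Ly6C+, with an edgeR adjusted p of 0.0817 and a 95% interval for the ratio of 0.683 to 0.986. It was -0.25 (SE 0.12, edgeR adjusted p = 0.175) for CD115-Ly6C- over CD115+Ly6C-. The difference between CD115-Ly6C- and CD115+Ly6C+ was called with DESeq2 (adjusted p = 0.033), without the filter on low counts (edgeR adjusted p = 0.0489) and with a trend over gene length removed (edgeR adjusted p = 0.0494). Between CD115+Ly6C+ and CD115+Ly6C- the log2 fold change came to 0.03 (SE 0.12, edgeR adjusted p = 0.88) with a 95% interval of the ratio of 0.853 to 1.23.

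Irf4 (Entrez gene 16364, chromosome 13, 30749233 to 30766981), the closest relative of Irf8 and a factor of type 2 conventional dendritic cells and plasma cells, was the rarest member and differed most in fold. It stood at 0.95 and 0.64 FPKM in CD115-Ly6C-, 0.17 and 0.10 FPKM in CD115+Ly6C+, and 0.17 and 0.15 FPKM in CD115+Ly6C-. These rest on 79 and 56 expected counts in CD115-Ly6C-, 15 and 8 counts in CD115+Ly6C+, and 15 and 13 counts in CD115+Ly6C-. Both CD115-Ly6C- libraries lay above the other 4, which overlapped each other.

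Irf4 was 5.08-fold higher in CD115-Ly6C- cells than in CD115+Ly6C+ cells (a log2 fold change of 2.35, SE 0.54, edgeR adjusted p = 0.00919). It was 4.55-fold higher than in CD115+Ly6C- (a log2 fold change of 2.19, SE 0.52, edgeR adjusted p = 0.0277). With so few counts the 95% interval of the ratio ran from 2.19 to 11.8 and from 1.99 to 10.4. Irf4 did not pass the stricter filter of 1 CPM in 4 libraries, so it was not tested under that alternative. The call against CD115+Ly6C+ was lost without CD115-Ly6C- replicate 1 or CD115+Ly6C+ replicate 2 (edgeR adjusted p of 0.0865 and 0.0672). The call against CD115+Ly6C- was lost without any single library of either subset (edgeR adjusted p = 0.063 to 0.231). Even in CD115-Ly6C- the FPKM of Irf8 was 863 and 1365 times that of Irf4.

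Irf1 (Entrez gene 16362, chromosome 11, 53770014 to 53778374), the interferon gamma-induced activator, stood at 56.9 and 49.6 FPKM in CD115-Ly6C-, 29.3 and 25.1 FPKM in CD115+Ly6C+, and 26.4 and 34.1 FPKM in CD115+Ly6C-. Both CD115-Ly6C- libraries were above all others, and CD115+Ly6C+ and CD115+Ly6C- overlapped. Irf1 was 1.71-fold higher in CD115-Ly6C- cells than in CD115+Ly6C+ cells (a log2 fold change of 0.78, SE 0.15, edgeR adjusted p = 0.00424). Against CD115+Ly6C- it was 1.62-fold higher (log2 fold change 0.70, SE 0.15, edgeR adjusted p = 0.0185), a call lost without CD115-Ly6C- replicate 1 or CD115+Ly6C- replicate 1 (edgeR adjusted p of 0.117 and 0.123).

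Irf2 (Entrez gene 16363, chromosome 8, 46739745 to 46847458), the counterpart that competes with Irf1, differed in the same direction. It stood at 23.0 and 20.4 FPKM in CD115-Ly6C-, 8.35 and 9.40 FPKM in CD115+Ly6C+, and 12.9 and 13.9 FPKM in CD115+Ly6C-. The 3 subsets did not overlap, with CD115-Ly6C- highest and CD115+Ly6C+ lowest. Irf2 was 2.13-fold higher in CD115-Ly6C- cells than in CD115+Ly6C+ cells (a log2 fold change of 1.09, SE 0.14, edgeR adjusted p = 0.000688).

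Against CD115+Ly6C-, Irf2 was 1.49-fold higher in CD115-Ly6C- (a log2 fold change of 0.57, SE 0.14, edgeR adjusted p = 0.0313), a call lost without any single library of either subset (edgeR adjusted p = 0.0684 to 0.194). Between CD115+Ly6C+ and CD115+Ly6C- its log2 fold change came to -0.52 (SE 0.14), with an edgeR adjusted p of 0.0579, just above the threshold. With library totals it was -0.59 (edgeR adjusted p = 0.04) and with DESeq2 -0.51 (adjusted p = 0.0342). The ratio of Irf1 to Irf2 in FPKM was 2.48 and 2.43 in CD115-Ly6C- libraries, 3.50 and 2.67 in CD115+Ly6C+ libraries, and 2.05 and 2.46 in CD115+Ly6C- libraries.

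Irf7 (Entrez gene 54123, chromosome 7, 141263183 to 141266499), the factor that drives high interferon alpha output in plasmacytoid dendritic cells, stood at 21.6 and 17.2 FPKM in CD115-Ly6C-, 4.81 and 5.99 FPKM in CD115+Ly6C+, and 3.66 and 5.41 FPKM in CD115+Ly6C-. Both CD115-Ly6C- libraries were above the other 4, which overlapped. In CD115-Ly6C- cells 69.2% and 64.7% of the genes with reads lay below Irf7, against 45.5% and 50.0% in the CD115+Ly6C+ libraries and 39.6% and 45.6% in the CD115+Ly6C- libraries. Irf7 was 3.09-fold higher in CD115-Ly6C- cells than in CD115+Ly6C+ cells (a log2 fold change of 1.63, SE 0.24, edgeR adjusted p = 0.00115) and 3.88-fold higher than in CD115+Ly6C- (a log2 fold change of 1.96, SE 0.24, edgeR adjusted p = 0.00235). Both calls held under all 15 alternatives tried, with adjusted p of at most 0.00903 and 0.0232. Between CD115+Ly6C+ and CD115+Ly6C- the log2 fold change came to 0.33 (SE 0.25, edgeR adjusted p = 0.418), with a 95% interval of the ratio of 0.853 to 1.85.

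Irf5 (Entrez gene 27056, chromosome 6, 29526130 to 29541869), which acts downstream of Toll-like receptors in macrophages and other myeloid cells, was the member called as higher in CD115+Ly6C+ over both others. It stood at 22.8 and 25.2 FPKM in CD115-Ly6C-, 49.1 and 47.4 FPKM in CD115+Ly6C+, and 19.2 and 30.1 FPKM in CD115+Ly6C-. Both CD115+Ly6C+ libraries were above the other 4, with 83.2% and 82.4% of the genes with reads below Irf5, and the CD115+Ly6C- libraries lay on either side of those of CD115-Ly6C-. Irf5 was 2.28-fold lower in CD115-Ly6C- cells than in CD115+Ly6C+ cells (a log2 fold change of -1.19, SE 0.19, edgeR adjusted p = 0.00187), a call that held under all 15 alternatives.

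Irf5 was also 2.05-fold higher in CD115+Ly6C+ cells than in CD115+Ly6C- cells (a log2 fold change of 1.04, SE 0.19, edgeR adjusted p = 0.0161). The CD115+Ly6C- libraries differed from each other, and this log2 fold change was 0.76 with CD115+Ly6C- replicate 1 left out (edgeR adjusted p = 0.0641) and 1.38 without CD115+Ly6C- replicate 2. The call was also lost without CD115+Ly6C+ replicate 1 or CD115+Ly6C+ replicate 2 (edgeR adjusted p of 0.0603 and 0.069). Of the exon bases of Irf5, 411 (14.1%) are shared with Tnpo3 on the other strand in the GENCODE M21 annotation, and reads there cannot be told apart where the strand was not kept. For Irf1, Irf3, Irf7 and Irf9 the share with a protein-coding neighbour was at most 3.4%.

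Irf7 and Irf5 thus differed in opposite directions between CD115-Ly6C- and CD115+Ly6C+. The ratio of Irf7 to Irf5 in FPKM was 0.949 and 0.684 in CD115-Ly6C- libraries, 0.0979 and 0.126 in CD115+Ly6C+ libraries, and 0.191 and 0.18 in CD115+Ly6C- libraries. Of the summed FPKM of the 7 genes other than Irf8, Irf7 held 8.37% and 6.77% in CD115-Ly6C- libraries, 2.47% and 3.02% in CD115+Ly6C+ libraries, and 2.01% and 2.76% in CD115+Ly6C- libraries. Irf5 held 8.82% and 9.90% in CD115-Ly6C- libraries, 25.2% and 23.9% in CD115+Ly6C+ libraries, and 10.5% and 15.3% in CD115+Ly6C- libraries. Irf2 held 8.88% and 8.01% in CD115-Ly6C- libraries, 4.28% and 4.74% in CD115+Ly6C+ libraries, and 7.05% and 7.07% in CD115+Ly6C- libraries. Irf9 and Irf3 together held the largest part in every library. These shares describe the mix of transcripts and were not tested.

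**Figure D3:**
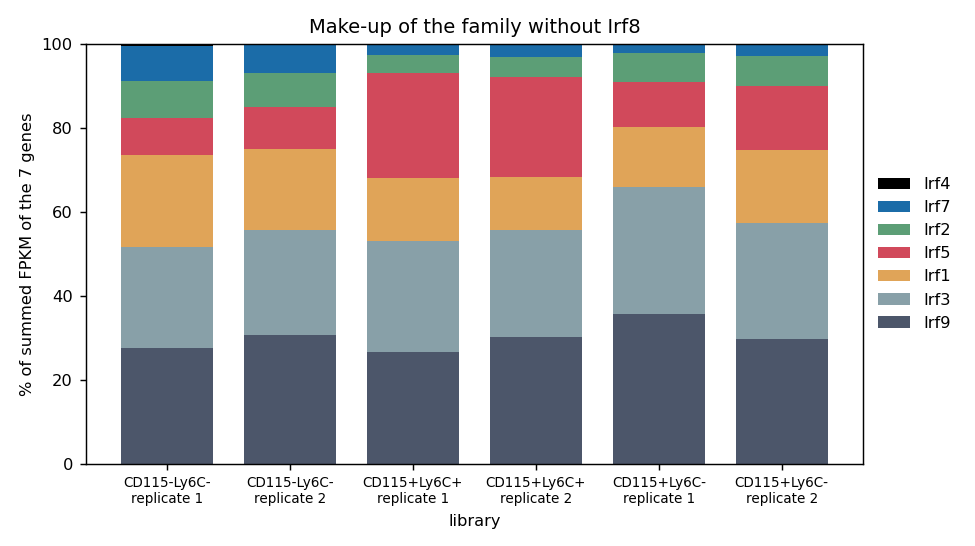
Each library's summed FPKM of the 7 genes other than Irf8, split by gene as a percentage. Irf5 takes 25.2% and 23.9% in CD115+Ly6C+ and 8.82% to 15.3% elsewhere, while Irf7 takes 8.37% and 6.77% in CD115-Ly6C- and 2.01% to 3.02% elsewhere.

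Irf3 (Entrez gene 54131, chromosome 7, 44997648 to 45002848), the ubiquitous factor of the early interferon beta response, varied least of the 8 between subsets after TMM scaling, while in FPKM the ratio of the highest to the lowest subset mean was smallest for Irf8. It stood at 62.2 and 63.7 FPKM in CD115-Ly6C-, 51.5 and 50.7 FPKM in CD115+Ly6C+, and 55.2 and 54.3 FPKM in CD115+Ly6C-. Scaled by TMM the differences were small, with a log2 fold change of 0.11 (SE 0.10, edgeR adjusted p = 0.421) for CD115-Ly6C- over CD115+Ly6C+ and a 95% interval of the ratio of 0.92 to 1.27. With library totals it was 0.30 (edgeR adjusted p = 0.0345), but that scaling moved the median of all genes to 0.22.

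Irf9 (Entrez gene 16391, chromosome 14, 55603985 to 55610030), the DNA-binding part of the complex that answers type I interferon, stood at 71.1 and 77.7 FPKM in CD115-Ly6C-, 51.8 and 59.6 FPKM in CD115+Ly6C+, and 65.1 and 58.4 FPKM in CD115+Ly6C-. Both CD115-Ly6C- libraries were highest in FPKM, yet the log2 fold change after TMM scaling was 0.21 (SE 0.13, edgeR adjusted p = 0.211) against CD115+Ly6C+ and 0.14 (SE 0.13, edgeR adjusted p = 0.485) against CD115+Ly6C-. With library totals the value against CD115+Ly6C+ was 0.41 (edgeR adjusted p = 0.022). The calls of Irf3 and Irf9 thus changed with the scaling. With library totals 3503 genes were higher and 1518 lower in CD115-Ly6C- cells than in CD115+Ly6C+ cells, against 2435 and 2333 with TMM.

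Genes that work with the family were read from 5 lists. Of 15 partner genes, 13 passed the filter on low counts, and 4 were higher and 1 lower in CD115-Ly6C- cells than in CD115+Ly6C+ cells, where the median log2 fold change stood at 0.36, beside 0.03 over all genes. These 5 are 38.5% of the 13, near the 39.3% of all genes called. With library totals, and with limma on FPKM, 7 were higher and 1 lower. Spi1, which encodes PU.1, the ETS partner of Irf4 and Irf8, stood at 167 and 195 FPKM in CD115-Ly6C-, 299 and 295 FPKM in CD115+Ly6C+, and 215 and 237 FPKM in CD115+Ly6C-. Its log2 fold change came to -0.91 (SE 0.12, edgeR adjusted p = 0.000655) for CD115-Ly6C- over CD115+Ly6C+, while that of Irf8 was not called. Tcf4, the E protein of plasmacytoid dendritic cells and also one of the 7 markers above, ran the other way (log2 fold change 1.24, SE 0.19, edgeR adjusted p = 0.0014). Over CD115+Ly6C-, CD115-Ly6C- had 2 partner genes higher and 1 lower (median 0.52), and CD115+Ly6C+ had 1 higher and 1 lower (median 0.18), which are 23.1% and 15.4% of the 13 beside 15.2% and 9.6% of all genes. Without the filter on low counts these counts were 5 and 4. With library totals they were 3 higher and 0 lower, and 0 higher and 1 lower. Both counts were 0 with CD115+Ly6C- replicate 1 left out, and that for CD115+Ly6C+ over CD115+Ly6C- was also 0 without CD115+Ly6C+ replicate 2 and 1 without CD115+Ly6C+ replicate 1 or CD115+Ly6C- replicate 2.

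Of 19 genes that sense nucleic acid or activate Irf3, Irf5 and Irf7, 6 were higher and 2 lower in CD115-Ly6C- cells than in CD115+Ly6C+ cells, 4 were higher and 0 lower in CD115-Ly6C- over CD115+Ly6C-, and 1 was higher and 2 lower in CD115+Ly6C+ over CD115+Ly6C-. The called genes were 42.1%, 21.1% and 15.8% of the 19, beside 39.3%, 15.2% and 9.6% of all genes. The medians of the log2 fold change were 0.13, 0.14 and -0.01. With library totals the split for CD115-Ly6C- over CD115+Ly6C+ was 8 higher and 1 lower, and for CD115+Ly6C+ over CD115+Ly6C- the count was 5 with DESeq2 and 1 with the length trend removed. Tlr7, the endosomal RNA receptor upstream of Irf7 and Irf5, stood at 12.8 and 13.5 FPKM in CD115-Ly6C-, 1.02 and 0.73 FPKM in CD115+Ly6C+, and 4.69 and 4.83 FPKM in CD115+Ly6C-. The 3 subsets did not overlap, and Tlr7 was thus lowest where Irf5 was highest. Its log2 fold change was called under every alternative in all 3 comparisons, at 3.71 (SE 0.20, edgeR adjusted p = 1.08e-05) for CD115-Ly6C- over CD115+Ly6C+. Ddx58, which encodes the RNA sensor RIG-I upstream of Irf3 and Irf7, stood at 6.75 and 4.74 FPKM in CD115-Ly6C-, 0.31 and 0.15 FPKM in CD115+Ly6C+, and 0.78 and 0.45 FPKM in CD115+Ly6C-. It was called as higher in CD115-Ly6C- over both others under every alternative. Tlr3, the endosomal receptor of double-stranded RNA, had 32 counts over the CD115-Ly6C- libraries, 25 over the CD115+Ly6C+ libraries and 0 over those of CD115+Ly6C-. It was called as higher in CD115-Ly6C- and in CD115+Ly6C+ over CD115+Ly6C-. With CD115+Ly6C- set at a floor of 3 counts over the subset, the ratios were 10.1 and 9.12. They take the 32 and 25 counts as exact and are no lower bound. The CD115+Ly6C+ libraries were uneven, at 0.279 and 1.20 CPM. Both calls were lost when any 1 library of the subsets compared was left out, and Tlr3 is also on the list of type 1 dendritic cell markers. The count for CD115-Ly6C- over CD115+Ly6C- came to 2 when CD115+Ly6C- replicate 1, or one of the CD115-Ly6C- libraries, was left out. It was 1 for CD115+Ly6C+ over CD115+Ly6C- without any single library of these subsets, and 5 for CD115-Ly6C- over CD115+Ly6C+ without CD115-Ly6C- replicate 2 or CD115+Ly6C+ replicate 2.

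**Figure D4:**
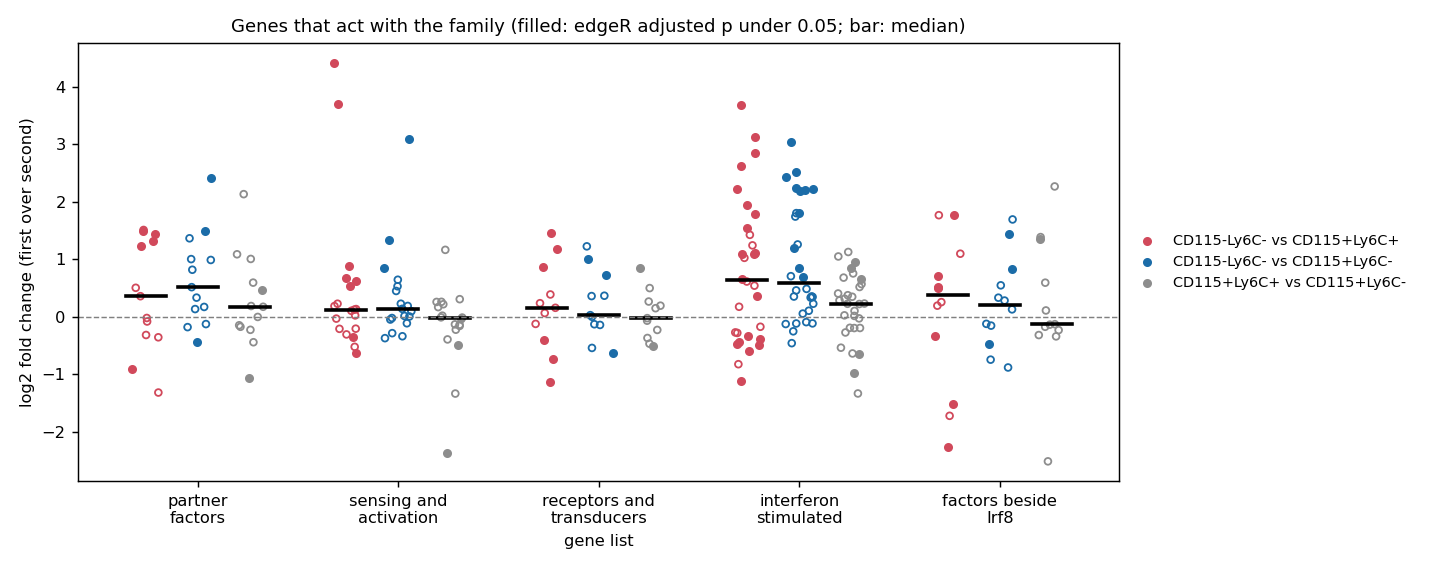
The log2 fold change, first subset over second, of the tested genes of 5 lists that act with the family, by comparison, filled where the edgeR adjusted p was under 0.05, with a bar for the list's median. Tlr3 is not drawn in the comparisons with CD115+Ly6C-, where it had 0 counts. The interferon-stimulated genes have medians of 0.64, 0.59 and 0.23 and reach 3.68.

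Of 11 interferon receptor and transducer genes, 3 were higher and 3 lower in CD115-Ly6C- cells than in CD115+Ly6C+ cells, 2 were higher and 1 lower in CD115-Ly6C- over CD115+Ly6C-, and 1 was higher and 1 lower in CD115+Ly6C+ over CD115+Ly6C-, with medians of 0.16, 0.03 and -0.02. The called genes were 54.5%, 27.3% and 18.2% of the 11, beside 39.3%, 15.2% and 9.6% of all genes. With library totals the first 2 splits were 4 higher and 2 lower, and 3 higher and 0 lower, and with the length trend removed the third count was 1. Stat2, the partner of Irf9, stood at 15.7 and 14.4 FPKM in CD115-Ly6C-, 5.87 and 5.71 FPKM in CD115+Ly6C+, and 7.52 and 9.26 FPKM in CD115+Ly6C-. Its log2 fold change came to 1.19 (SE 0.14, edgeR adjusted p = 0.000441) for CD115-Ly6C- over CD115+Ly6C+, where Irf9 had 0.21 and was not called. With CD115+Ly6C- replicate 1 left out, 0 of the 11 were called in either comparison with CD115+Ly6C-. The count was also 0 for CD115+Ly6C+ over CD115+Ly6C- without CD115+Ly6C+ replicate 2 and 1 without CD115+Ly6C+ replicate 1 or CD115+Ly6C- replicate 2, 1 for CD115-Ly6C- over CD115+Ly6C- without CD115-Ly6C- replicate 1, and 3 for CD115-Ly6C- over CD115+Ly6C+ without CD115-Ly6C- replicate 1 or CD115+Ly6C+ replicate 1.

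Of 30 interferon-stimulated genes, which carry response elements that the family binds, 13 were higher and 7 lower in CD115-Ly6C- cells than in CD115+Ly6C+ cells. The split was 16 higher and 1 lower with library totals. Over CD115+Ly6C-, CD115-Ly6C- had 11 higher and 0 lower, and the count was 6 without CD115-Ly6C- replicate 1 or CD115+Ly6C- replicate 1. The count for CD115-Ly6C- over CD115+Ly6C+ was 12 without either CD115-Ly6C- library. CD115+Ly6C+ over CD115+Ly6C- had 3 higher and 2 lower, and between 0 and 2 in all without any single library of these subsets, 0 without CD115+Ly6C- replicate 1. That count was 8 with DESeq2 and 1 with the length trend removed. The called genes were 66.7% of the 30 for CD115-Ly6C- over CD115+Ly6C+, 36.7% for CD115-Ly6C- over CD115+Ly6C- and 16.7% for CD115+Ly6C+ over CD115+Ly6C-, beside 39.3%, 15.2% and 9.6% of all genes. In the same order the medians were 0.64, 0.59 and 0.23. Ifi44 and Rtp4 had the smallest adjusted p of the list in both comparisons of CD115-Ly6C-. Rtp4, a chaperone gene that interferon induces, stood at 28.0 and 28.7 FPKM in CD115-Ly6C-, 1.67 and 2.19 FPKM in CD115+Ly6C+, and 3.40 and 2.91 FPKM in CD115+Ly6C-. The log2 fold change of Ifi44 was 2.85 (SE 0.16, edgeR adjusted p = 1.49e-05) for CD115-Ly6C- over CD115+Ly6C+, beside 1.63 for Irf7 and 0.21 for Irf9. Of the 7 called as lower there, Cmpk2 had the smallest adjusted p (log2 fold change -1.115, SE 0.14, edgeR adjusted p = 0.000532). Genes not called there included Isg15, Rsad2, Ifit2, Ifit3, Mx1 and Mx2.

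Of 12 factors that act with or beside Irf8 in the choice between dendritic cell and monocyte fates, 4 were higher and 3 lower in CD115-Ly6C- cells than in CD115+Ly6C+ cells (6 and 2 with library totals, and 3 in all without CD115+Ly6C+ replicate 2). Nfil3, needed for type 1 conventional dendritic cells, stood at 79.9 and 79.4 FPKM in CD115-Ly6C-, 22.5 and 18.4 FPKM in CD115+Ly6C+, and 25.8 and 28.3 FPKM in CD115+Ly6C-. It was called as higher in CD115-Ly6C- over both others under every alternative. Cebpa, a granulocyte and monocyte factor, was highest in CD115+Ly6C+, as Irf5 was, at 9.39 and 7.93 FPKM, against 3.18 and 3.90 FPKM in CD115+Ly6C-. That difference (log2 fold change 1.36, SE 0.22, edgeR adjusted p = 0.00946) was lost without CD115+Ly6C+ replicate 1 or CD115+Ly6C- replicate 1 (edgeR adjusted p of 0.0516 and 0.0824). Cebpa was the only gene of the 12 called there, and a second was called with library totals, DESeq2, no filter, only these subsets in the fit, and limma on log2(FPKM + 0.1). Over CD115+Ly6C-, CD115-Ly6C- had 2 of the 12 higher and 1 lower, 3 and 0 with library totals, and only Nfil3 without CD115+Ly6C- replicate 1 or CD115+Ly6C- replicate 2. The called genes were 58.3% of the 12 for CD115-Ly6C- over CD115+Ly6C+, 25.0% for CD115-Ly6C- over CD115+Ly6C- and 8.33% for CD115+Ly6C+ over CD115+Ly6C-, beside 39.3%, 15.2% and 9.6% of all genes. The medians were 0.38 for CD115-Ly6C- over CD115+Ly6C+, 0.21 for CD115-Ly6C- over CD115+Ly6C- and -0.13 for CD115+Ly6C+ over CD115+Ly6C-.

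For the 3 members with the widest range of subset means in TMM-scaled log2 CPM (Irf4, Irf7 and Irf5), the genes with the most similar profile over the 6 libraries were read from 8239 genes with a mean of at least 10 CPM over the libraries, leaving out genes named by a clone or locus number. In FPKM the ratio of the highest to the lowest subset mean was larger for Irf2 than for Irf5. Likeness was the root mean square difference of log2 CPM, each gene centred on its own mean. Nearest to Irf5 were S100a10 (0.12), Tmem150b (0.12) and Csrp2 (0.13). S100a10 stood at 246 ± 3.21 CPM in CD115-Ly6C-, 618 ± 13.4 CPM in CD115+Ly6C+ and 296 ± 45.7 CPM in CD115+Ly6C- (SD, n = 2 each).

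Nearest to Irf7 were Ly6a (0.17), Cd84 (0.24) and Cd33 (0.26). Ly6a, the gene of the stem cell antigen Sca-1, stood at 23.2 ± 0.506 CPM in CD115-Ly6C-, 9.07 ± 2.58 CPM in CD115+Ly6C+ and 7.34 ± 2.82 CPM in CD115+Ly6C- (SD, n = 2 each). Nearest to Irf4 were H2-Q7 (0.13), H2-Q8 (0.24) and Pdgfrb (0.30). H2-Q7 and H2-Q8 are close copies among which RSEM divides reads by estimation, so their values are uncertain. These profiles rest on 6 libraries in 3 subsets, with few counts for Irf4, and carry no test.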

How the data were processed

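Polyadenylated RNA of 3 sorted subsets, 2 libraries each, was fragmented and amplified by PCR, per the labels' protocols. Per the submitters' processing notes, Bowtie2, RSEM and the build mm10 were used, with versions and settings not given in the sources used here. The authors deposited RSEM expected counts and FPKM for each gene, per the file headers. Of the expected counts above 0, 12.6% were not whole (tolerance 1e-06). A gene missing from a library's table was taken as 0. Library totals lay between 17961541 and 19450329 expected counts. No label mentions molecular identifiers or strand, so the floor used for Tlr3 covers counting error only. Intervals come from the fit and also take in the spread between the libraries, which may be technical.

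Rounded expected counts went into the quasi-likelihood pipeline of edgeR 4.0.16 (R 4.3.3), with all 6 libraries in 1 fit, TMM scaling and no covariate. Genes were kept by filterByExpr (minimum count 10, minimum total 15), which left 12127 of 16135, all 8 members among them. Adjusted p-values are Benjamini-Hochberg over all genes tested, with a threshold of 0.05. The biological coefficient of variation was 15.2%, on 3 residual and 5.6 prior degrees of freedom. The SE of a log2 fold change is its absolute value divided by the root of the F statistic, and 95% intervals use the t distribution on these degrees of freedom. The fit was also run on counts simulated from its own dispersion, with libraries drawn independently. Such a run cannot show whether the 2 libraries of a subset were technical replicates. Levels of genes are compared in FPKM, which is per length. CPM is counts scaled for library size by TMM.

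Alternatives were library totals, DESeq2 1.42.0, no filter, a stricter filter (1 CPM in 4 libraries), only the 2 subsets compared, limma 3.58.1 on log2(FPKM + 1) and log2(FPKM + 0.1), a length trend removed (lowess span 0.3), the replicate number as a block, and each library left out. The members and gene lists were chosen with earlier results of these data known. Named genes were the 8 members, up to 4 called genes of each list with the smallest adjusted p, and the 3 nearest profiles of 3 members. Gene symbols and positions came from RefSeq for GRCm38.p6, the assembly of mm10, which matched 15332 identifiers. Shared exons came from GENCODE M21.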

Additional observations from a re-analysis of the deposited data

How the results depend on the processing

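In no alternative did a fold change of the 8 genes that was called change its direction. Irf4 did not pass the stricter filter and was not tested there. The 357 values of a gene in a comparison that were read also take in differences that were not called. For those called in neither the main fit nor the alternative, a change of direction was not counted. In CD115-Ly6C- against CD115+Ly6C+, Irf1, Irf2, Irf5 and Irf7 were called in all 15 alternatives, and in CD115-Ly6C- against CD115+Ly6C- Irf7 was. Leaving out 1 library moved the count of the 8 genes called to between 0 and 1 for CD115+Ly6C+ over CD115+Ly6C-, 1 and 4 for CD115-Ly6C- over CD115+Ly6C-, and 4 and 5 for CD115-Ly6C- over CD115+Ly6C+, and the count of all genes called to between 220 and 1139, 485 and 1744, and 2983 and 4632. The lowest counts of all genes came without CD115+Ly6C- replicate 1, CD115-Ly6C- replicate 1 and CD115+Ly6C+ replicate 2 in turn. A subset left with 1 library is assumed to vary like the others. For CD115+Ly6C+ over CD115+Ly6C- the count of the 8 was 2 with library totals, DESeq2, no filter, and limma with either pseudocount. The count of all genes there was 1812 with DESeq2, 1810 without the filter and 717 with the length trend removed. Fewer libraries enter the fits that leave 1 out. For the other changes the cause was not tested. Library totals put the median log2 fold change of all genes at 0.22 for CD115-Ly6C- over CD115+Ly6C+, 0.14 for CD115-Ly6C- over CD115+Ly6C- and -0.08 for CD115+Ly6C+ over CD115+Ly6C-, and limma on log2(FPKM + 1) at 0.16, 0.10 and -0.05, so levels in FPKM carry that shift. With library totals 1383 genes were higher and 479 lower in CD115-Ly6C- cells than in CD115+Ly6C- cells (1022 and 822 with TMM), and 485 higher and 778 lower in CD115+Ly6C+ cells than in CD115+Ly6C- cells (638 and 526 with TMM). The correlation of the replicate differences across genes was 0.112, -0.001 and -0.002 for the 3 pairs of subsets. No large shift shared by replicate number was thus seen, which cannot settle whether libraries were paired by animal or sort. With the replicate block the counts of the 8 genes stayed at 5 for CD115-Ly6C- over CD115+Ly6C+, 4 for CD115-Ly6C- over CD115+Ly6C- and 1 for CD115+Ly6C+ over CD115+Ly6C-. The counts of all genes were then 4550, 1503 and 965. Depth limits Irf4 most, with 8 to 15 expected counts in each library of the CD115+ subsets.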
